A study of Homo sapiens with 18 samples.

Results

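The first transcriptional response of VCaP prostate cancer cells to the small molecule PBITE-1 was followed at 4 h, the earliest time point measured. VCaP is an established line of metastatic prostate cancer cells that carry the TMPRSS2:ERG fusion, which places the transcription factor ERG under the androgen-responsive TMPRSS2 promoter. PBITE-1 was developed as a ligand of the Pointed domain of ERG, and the comparison asks which genes move first when ERG-positive cells meet the compound. It was defined by the sample labels alone: the 3 parental VCaP samples given 50 µM PBITE-1 for 4 h were set against the 3 parental VCaP samples given DMSO, the solvent, which makes 6 of the 18 samples of the series. The other samples were parental VCaP cells after 8 and 12 h of 50 µM PBITE-1 and VCaP cells with a doxycycline-inducible hairpin against ERG (VCaP-shERG), labelled shERG.DMSO or shERG.Dox at 1 µg/mL, with 3 samples in each group. All groups were grown in the same serum-containing medium. The model is 1 cell line at 1 dose, no inactive analogue of the compound was analysed here, and the labels give no collection time for the DMSO samples, so 4 h of compound and any difference in time in culture cannot be told apart. The study's methods call the samples of each treatment time biological replicates. The p-values below for PBITE-1 set each difference against the spread within the groups of all 12 parental samples.

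Cells that meet a drug or a stress answer in waves. Immediate early genes, such as those of the AP-1 factors FOS and JUN and of EGR1, are switched on by factors already present in the cell and give short-lived transcripts. Slower programmes are run by a few dedicated regulators: ATF4 drives amino acid synthesis and CHOP-type genes in the integrated stress response, NF-kB drives chemokines and its own inhibitors, HSF1 drives chaperones, and MTF1 drives metallothioneins when free zinc rises. MYC, a transcription factor that promotes growth, also has a short-lived message.

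RNA was depleted of ribosomal RNA and sequenced, and the deposited table holds a count for each of 22034 genes. Total counts were 14827453 to 17140075 in the DMSO samples and 12206814 to 13639526 at 4 h. Levels are given below as CPM, each gene's counts scaled to a fixed total per sample with TMM factors, and always in the order of replicates 1, 2 and 3. Differences are log2 fold changes from limma-voom with their standard error (SE) and a Benjamini-Hochberg adjusted p over the 14164 genes with enough counts to be tested. A gene is said to have passed at an adjusted p below 0.05, and is called higher or lower, or said to have risen or fallen, if its log2 fold change also exceeded 1 in size. The luminal epithelial identity of the line was borne out by its markers: EPCAM had 3624 to 5574 counts and KLK3, which encodes PSA, 915 to 1412 in these 6 samples. Among markers of other cell types, PTPRC and CD3E of immune cells and DCN of fibroblasts were at 0 counts in all 6 samples, while CD68 had 9 to 18, LUM 7 to 21, COL1A2 0 to 1 and the endothelial PECAM1 0 to 4. The basal markers TP63 and KRT14 had 0 to 3 and 48 to 96 counts. The neuroendocrine markers were the highest of this list, with CHGA at 498 to 630 and SYP at 556 to 682 counts, and of these SYP passed (0.24, not called). Of the 9 tested markers of other cell types, COL1A1 was called higher (1.15, 16 to 46 counts over the 6 samples) and VWF lower (-1.33, 2 to 25 counts), but the call of COL1A1 was lost without DMSO replicate 2 and that of VWF without DMSO replicate 1 or 3 or replicate 2 at 4 h. The summed level of these markers was 83.1 to 95 per-library CPM, without TMM, in DMSO and 93 to 97.1 at 4 h.

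After 4 h of PBITE-1, 1031 genes were called higher, 7.28% of those tested, and 424 were called lower, 2.99%. Without the fold limit, 3741 genes (26.4%) passed in the higher direction and 3495 (24.7%) in the lower. Within the fold limit, 2710 genes passed in the higher direction and 3071 in the lower, so the smaller shifts leaned downward while the larger ones were mostly increases. A log2 fold change above 2 was reached by 415 genes and one below -2 by 57, and beyond 4 in size the counts were 85 and 3. In 994 of the genes called higher and 398 of those called lower, all 3 samples at 4 h lay outside the range of the 3 DMSO samples, against 56.4% of all tested genes, called or not, whose groups did not overlap. The genes called higher started from a median of 1.6 CPM and those called lower from 5.31 CPM, against 20.7 CPM for all tested genes. The median log2 fold change over all tested genes was -0.01. In these bulk samples, fewer cells of a type and less RNA per cell cannot be told apart.

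**Figure D1:**
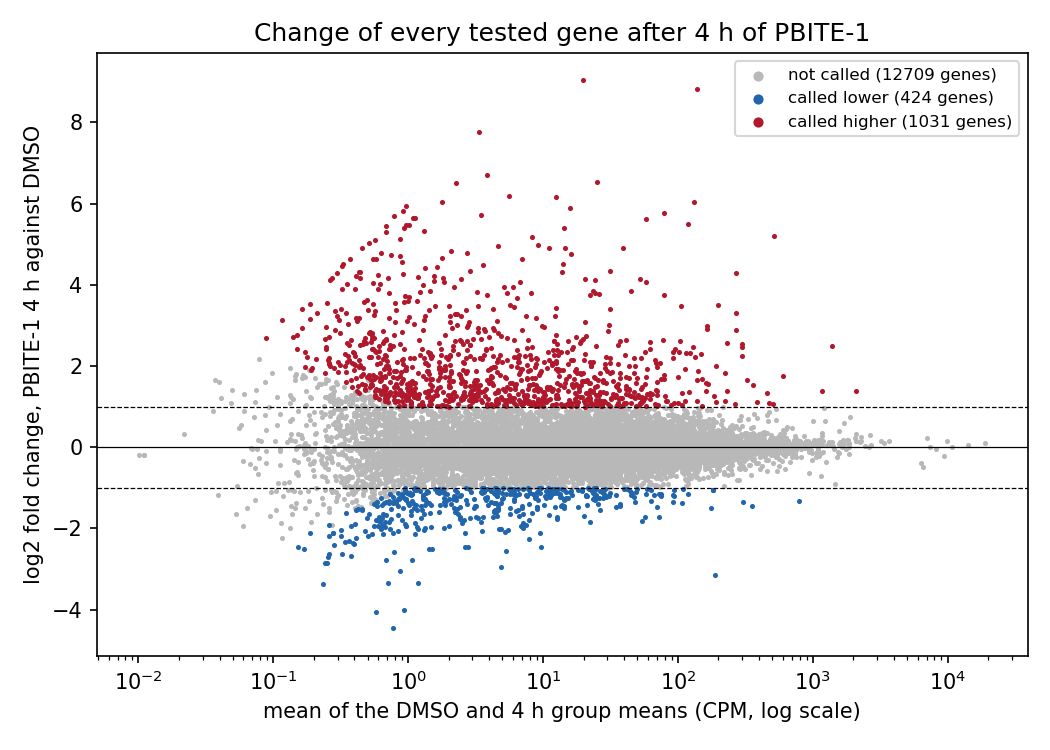
Log2 fold change of each of the 14164 tested genes at 4 h against the mean of its DMSO and 4 h levels in CPM on a log axis, with the 1031 genes called higher in red, the 424 called lower in blue and dashed lines at the fold limits of 1 and -1. The red points reach far higher than the blue points reach down, and most called genes lie to the left, at low levels.

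The 15 largest increases, among called genes whose groups did not overlap and that averaged at least 50 counts, were led by regulators of stress. ATF3, a stress-induced repressor of the ATF/CREB family (ENSG00000162772, chromosome 1, 212565334 to 212620777, plus strand; positions here are from GENCODE 29 on GRCh38), was at 0.46, 1.04 and 0.40 CPM in the DMSO samples and at 334, 248 and 254 CPM at 4 h (log2 fold change 8.82 ± 0.63 (SE), adjusted p = 5.8e-15). CHAC1, a glutathione-degrading enzyme, had 3 counts over the 3 DMSO samples together and 1565 at 4 h, and stood at 36.3, 44.1 and 39 CPM there (ratio 632, interval 216 to 3070.0, for counting error only at 95%). JUN, the central AP-1 subunit (ENSG00000177606, chromosome 1, 58780788 to 58784327, minus strand), went from 29.6, 27.5 and 24.3 CPM to 1241, 816 and 974 CPM (log2 fold change 5.20 ± 0.12 (SE), adjusted p = 1.8e-30). Absence of overlap between the groups was a condition for choosing these genes. JUN was also among the 5 largest increases in absolute level among called genes.

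DDIT4, an inhibitor of mTORC1 signalling, rose from 3.48, 4.21 and 4.05 CPM to 245, 291 and 248 CPM (log2 fold change 6.05 ± 0.17 (SE), adjusted p = 3.6e-28). TNFAIP3, the NF-kB inhibitor A20, rose from 1.64, 3.3 and 2.06 CPM to 130.3, 100.3 and 109 CPM (log2 fold change 5.62 ± 0.24 (SE), adjusted p = 9.8e-22). GFPT2, which makes glucosamine phosphate for the hexosamine pathway, rose from 3.15, 2.2 and 3.08 CPM to 169, 149 and 143 CPM (log2 fold change 5.77 ± 0.22 (SE), adjusted p = 1.0e-23). In these 3 genes, chosen for a large fold without overlap, the groups were more than an order of magnitude apart. The chemokine gene CXCL8, the Notch ligand gene DLL4 and the transcription factor genes KLF2, FOSB and MAFA were among the 15 as well, each at or below 1.1 CPM in every DMSO sample. CXCL8 was the least even of them at 4 h, at 78, 32.1 and 39.3 CPM (log2 fold change 6.53 ± 0.78 (SE), adjusted p = 4.6e-09). KLF2 was at 24.8, 23.6 and 25.7 CPM (log2 fold change 6.16 ± 0.43 (SE), adjusted p = 3.1e-15). The other 4 were SERTAD1 (5.17), a cofactor of cyclin-dependent kinase and E2F activity, the calmodulin-binding gene IQCN (5.49), the histone gene H4C4, and ALOXE3P1 (5.41), a pseudogene whose reads may be shared with its parent gene.

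Under the same limits of at least 50 counts on average and no overlap, MYC had the largest fold decrease. It was at 334, 356 and 329 CPM in the DMSO samples and at 38.9, 35.9 and 40.5 CPM at 4 h (log2 fold change -3.14 ± 0.07 (SE), adjusted p = 7.8e-31). In absolute level only AMD1 and TRIB1, described below, fell further among called genes. ISX, an intestinal homeobox gene, fell from 8.54, 9.52 and 7.82 CPM to 1.07, 1.11 and 1.03 CPM (log2 fold change -2.96 ± 0.32 (SE), adjusted p = 3.5e-10). KLHDC7A, a kelch-domain gene, went from 9.66, 8.73 and 8.91 CPM to 1.48, 1.77 and 1.33 CPM (log2 fold change -2.55 ± 0.27 (SE), adjusted p = 2.2e-10). The MYC samples at 4 h lay within a narrow band about an order of magnitude below the DMSO samples. SPRY4, a Sprouty inhibitor of receptor tyrosine kinase signalling, was at 8.61, 8.85 and 8.91 CPM and then at 1.07, 2.51 and 3.18 CPM (log2 fold change -2.05 ± 0.24 (SE), adjusted p = 4.1e-09), a wider spread than for most of these genes. The G protein regulator RGS4 (-2.06), the short-chain fatty acid receptor gene FFAR2 (-2.01), the semaphorin gene SEMA4C (-2.25), the potassium channel gene KCNC4 (-1.91) and the deubiquitinase gene USP51 (-1.95) also fell, as did LRTM2 (-2.45), FJX1 (-2.08) and AMER3 (from 11.3 to 2.8 CPM on average). ALKBH4 (from 7.75 to 2.01 CPM on average) overlaps ORAI2 on the opposite strand, and with the use of strand not stated their reads cannot be fully told apart. ZNF792 (-2.11) and ZNF234 (-1.87) encode zinc finger proteins. Genes with a ZNF number, a group looked at after the values were seen, made up 7.08% of the genes called lower and 3.49% of those called higher, against 3.4% of all tested genes.

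**Figure D2:**
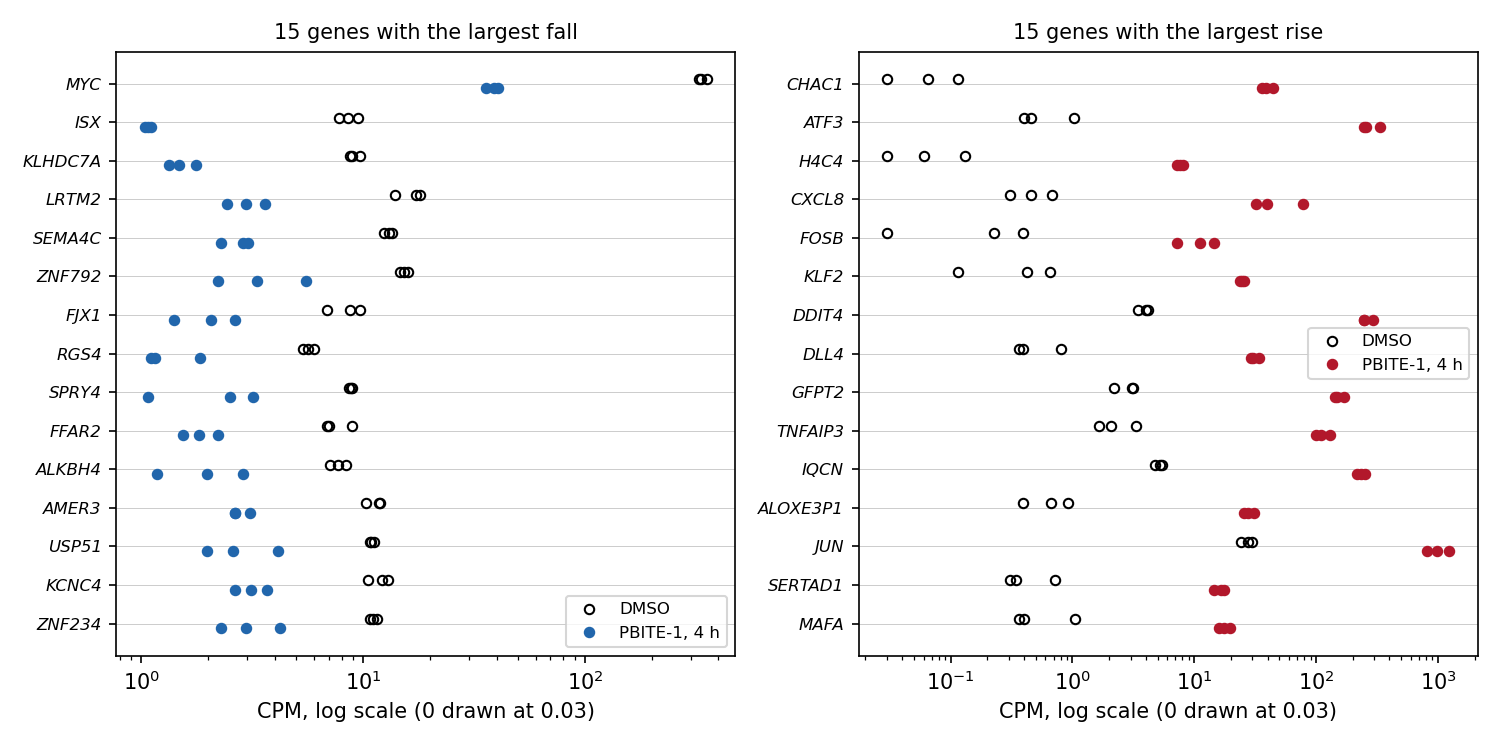
CPM on a log axis in each of the 3 DMSO samples (open circles) and each of the 3 samples at 4 h (filled circles) for the 15 genes with the largest fall, left, and the 15 with the largest rise, right, with 0 drawn at 0.03. No 4 h sample overlaps a DMSO sample in any of the 30 rows, since absence of overlap was part of how they were chosen.

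In absolute level the called genes were led by well expressed metabolic and regulatory genes, and the ranks in this paragraph are among called genes only. Some genes inside the fold limit moved further. MT-ND5 went from 7659 to 5433 CPM on average and HSPA8 from 1419 to 2382 CPM. The 5 largest falls were those of AMD1, which makes the aminopropyl donor for polyamines (from 1133 to 455 CPM on average), the pseudokinase gene TRIB1 (from 522 to 190.4 CPM on average), MYC, MAT2A, which makes S-adenosylmethionine (from 439.5 to 172 CPM on average), and TXNIP, a glucose-responsive inhibitor of thioredoxin (from 259.7 to 92.8 CPM on average). AMD1, TRIB1, MAT2A and TXNIP had log2 fold changes of -1.32, -1.46, -1.36 and -1.50. The largest increases were in INSIG1, which retains the sterol sensor SCAP in the endoplasmic reticulum (from 415 to 2358 CPM on average), the cyclin gene CCNJ (from 1165 to 3031 CPM on average), the retrotransposon-derived gene PEG10 (from 655 to 1701 CPM on average), JUN and the amino acid transporter gene SLC38A2 (from 274 to 928 CPM on average).

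Some genes went from nearly silent to expressed. In all, 34 genes, CHAC1 and H4C4 among them, had at most 3 counts in every DMSO sample and at least 10 in every 4 h sample, and 6 went the other way. Of the 34, 5 had no count at all in DMSO, so their fold is a lower bound set by 3 counts over the 3 DMSO samples. H1-6, a testis-type linker histone gene, had 76, 110 and 78 counts at 4 h, at least 107-fold higher. GUCY2C, the guanylin receptor gene, had 33, 19 and 23 counts (at least 30.3-fold), TNF had 30, 13 and 28 (at least 28.7-fold), CXCL3 had 16, 27 and 19 (at least 25.1-fold) and the cytokine gene CSF3, which encodes G-CSF, had 14, 28 and 12 (at least 21.8-fold). Others of the 34, with 1 to 4 counts in total over the DMSO samples, were the Wnt ligand genes WNT9B (ratio 106, interval 18.4 to 4213) and WNT11 (ratio 82.4, interval 22.4 to 688), BMP2 (ratio 33.9, interval 8.97 to 287), the cytokine signalling inhibitor gene SOCS1 (ratio 102, interval 17.8 to 4069), the urokinase gene PLAU (ratio 80, interval 13.9 to 3207), and the transcription factor genes TBX21 (ratio 61.2, interval 16.5 to 512), FOXC1 (ratio 58.2, interval 9.96 to 2346) and SNAI2 (ratio 20.6, interval 7.69 to 77.8). These intervals are exact, at 95%, and cover counting error only. The 6 genes that went to 3 counts or fewer were ATOH1, a neural basic helix-loop-helix factor gene (74 counts over the DMSO samples and 2 at 4 h), B3GALT2 (55 and 2), the atypical cadherin gene FAT3 (87 and 4), the pseudogene PGBD4P8 (107 and 7), NRROS (34 and 5) and the splicing factor gene RBM20 (32 and 6). The call of RBM20 did not hold without replicate 1 or replicate 2 at 4 h.

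Gene lists were then read against these shares of 7.28% called higher and 2.99% called lower. Counts of members that passed, called or not, are to be read against 26.4% of all tested genes in the higher direction and 24.7% in the lower. The AP-1 family, whose FOS, JUN and ATF members pair to bind DNA, had the highest median log2 fold change, 2.88. Of its 11 tested members 9 were called higher and none lower. FOS rose from 0.657, 0.732 and 0.457 CPM to 8.41, 10.5 and 9.98 CPM (log2 fold change 3.94 ± 0.33 (SE), adjusted p = 6.2e-13). JUNB rose from 6.31, 6.41 and 4.22 CPM to 117, 78.3 and 102 CPM (log2 fold change 4.14 ± 0.19 (SE), adjusted p = 2.7e-21). JUND, usually the constitutive member, rose from 67.7, 64 and 60.9 CPM to 511, 442 and 463 CPM (log2 fold change 2.88 ± 0.05 (SE), adjusted p = 3.1e-33). JUNB was the least even at 4 h, yet every 4 h sample exceeded every DMSO sample in all 3 genes. FOSB was at 0.394, 0 and 0.228 CPM in DMSO and at 7.26, 14.6 and 11.2 CPM at 4 h, and it overlaps ERCC1 on the opposite strand, whose log2 fold change was -0.04. FOSL2 rose by less (1.13), and the small MAF gene MAFK was the member that passed in the lower direction (-0.62, not called).

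Of 20 further immediate early genes, 14 were called higher and 1 lower, with a median of 1.74. EGR1, a zinc finger factor induced by growth factors and stress through serum response factor, was at 3.02, 2.56 and 2.28 CPM in DMSO and at 47.7, 46.4 and 43.8 CPM at 4 h (log2 fold change 4.13 ± 0.18 (SE), adjusted p = 1.2e-21). ARC, first known from neurons, rose from 0.723, 0.61 and 0.685 CPM to 25, 19 and 20 CPM (log2 fold change 4.91 ± 0.35 (SE), adjusted p = 6.2e-15). The orphan nuclear receptor gene NR4A3 rose from 0.197, 0.488 and 0 CPM to 3.46, 1.85 and 1.4 CPM (log2 fold change 3.83 ± 0.67 (SE), adjusted p = 7.5e-06). The 3 genes were low in every DMSO sample and at least several-fold higher in every 4 h sample. IER5 (3.81) and IER5L (3.47) rose as well, and IER3, with 0, 0 and 0 counts in DMSO and 29, 14 and 9 at 4 h, did so from no detectable level (at least 21-fold). The member called lower was ZFP36L1 (-1.06; its call was lost without DMSO replicate 2 or without replicate 1 at 4 h), which encodes an mRNA decay factor and is named here after its value was seen. The promoter of EGR1, as the 250 bases before its RefSeq start, is shown because it holds 2 matches, in capitals, to the CArG box of serum response factor. A CArG box was found in 1.31% of the promoters of genes called higher, 1.06% of those of tested genes and 1.29% of all RefSeq promoters.
EGR1, chr5:138465229-138465478, plus strand (GRCh38.p14): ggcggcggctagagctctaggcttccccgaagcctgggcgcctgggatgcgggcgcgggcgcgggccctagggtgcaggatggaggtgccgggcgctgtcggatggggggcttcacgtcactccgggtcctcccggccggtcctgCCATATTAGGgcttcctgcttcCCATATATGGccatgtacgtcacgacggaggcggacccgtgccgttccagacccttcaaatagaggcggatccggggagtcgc

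The genes that feed back on this signalling moved in both directions. Among 15 phosphatases of MAP kinases and Sprouty genes, 7 were called higher and 3 lower (median 0.42). DUSP10, which acts on p38 and JNK, rose from 0.92, 0.732 and 1.08 CPM to 31.7, 27.2 and 26.3 CPM (log2 fold change 4.92 ± 0.29 (SE), adjusted p = 1.5e-17). DUSP5 rose by 3.44 and DUSP1 by 2.28, on the log2 scale, and DUSP6, DUSP14 and SPRY2 by 1.29, 1.27 and 1.15. The 3 that fell were SPRY4, SPRY1 (-1.25) and DUSP2 (-1.13), the last 2 named after their values were seen. In the family of Kruppel-like factors, which are zinc finger regulators of growth and differentiation, 6 of 14 members were called higher and none lower (median 0.70). KLF2 led. KLF6 rose from 32.5, 33.1 and 30.4 CPM to 404, 336 and 346 CPM (log2 fold change 3.49 ± 0.08 (SE), adjusted p = 2.4e-30). KLF4 (1.83), KLF5 (1.67), KLF15 (1.43) and KLF10 (1.15) followed.

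NF-kB targets rose in large part. Of 25 tested chemokine, subunit and inhibitor genes of the NF-kB pathway, 17 were called higher and none lower, with a median of 1.95. Among ligands, CXCL1, a neutrophil chemokine, rose from 0.131, 0.366 and 0 CPM to 9.48, 4.5 and 6.21 CPM (log2 fold change 5.73 ± 0.69 (SE), adjusted p = 5.0e-09). CCL20 had 82, 31 and 61 counts at 4 h against 1 in all DMSO samples together (ratio 211, interval 37.4 to 8378). CXCL2 had 10, 5 and 6 counts at 4 h against 0, 0 and 0 in DMSO. Among inhibitors, NFKBIA, which encodes the IkBα protein that holds NF-kB in the cytoplasm, rose from 38.4, 38.1 and 37.8 CPM to 313, 261 and 297 CPM (log2 fold change 2.92 ± 0.07 (SE), adjusted p = 1.7e-30). IRF1, a transcription factor shared with the interferon response, rose from 5.85, 7.38 and 6.91 CPM to 60.9, 51.7 and 50.9 CPM (log2 fold change 3.01 ± 0.13 (SE), adjusted p = 1.3e-21). Ligands and inhibitors both rose, and no 4 h sample of these genes overlapped a DMSO sample.

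Matches to the NF-kB site, a motif searched for after the values were seen, were present in the promoters of 13 of the 21 tested members of the list with a promoter in the RefSeq table and of 10 of the 14 called higher. The share was 9.45% for all genes called higher, 7.09% for genes called lower, 6.55% for tested genes and 5.72% for all promoters. The 3 shown here let the sites be read beside the values, each as the 250 bases before the start with the matches to the degenerate consensus, on either strand, in capitals; the 2 matches of CXCL1 overlap. A match is a description of the letters and not evidence of binding.
TNFAIP3, chr6:137867009-137867258, plus strand (GRCh38.p14): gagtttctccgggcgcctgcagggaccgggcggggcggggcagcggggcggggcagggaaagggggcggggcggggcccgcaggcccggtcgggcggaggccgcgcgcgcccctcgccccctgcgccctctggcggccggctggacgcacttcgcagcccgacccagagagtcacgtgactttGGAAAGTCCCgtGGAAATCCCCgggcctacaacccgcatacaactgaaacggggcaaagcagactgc
CXCL1, chr4:73869143-73869392, plus strand (GRCh38.p14): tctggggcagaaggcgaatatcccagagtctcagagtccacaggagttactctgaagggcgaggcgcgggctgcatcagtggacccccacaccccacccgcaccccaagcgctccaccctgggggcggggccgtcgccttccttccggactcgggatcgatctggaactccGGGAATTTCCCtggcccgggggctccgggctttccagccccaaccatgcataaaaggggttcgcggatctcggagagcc
NFKBIA, chr14:35404750-35404999, minus strand (GRCh38.p14): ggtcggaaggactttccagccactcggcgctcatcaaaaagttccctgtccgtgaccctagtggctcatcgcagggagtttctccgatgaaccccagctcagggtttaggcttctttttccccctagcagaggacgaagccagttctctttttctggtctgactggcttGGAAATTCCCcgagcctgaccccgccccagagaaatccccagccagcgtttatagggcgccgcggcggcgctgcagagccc

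Interferon-stimulated genes moved little as a list. Of 21 tested interferon-stimulated genes, 3 were called higher and 1 lower, with a median of -0.06. IRF7, the amplifier of the interferon response, rose by 2.26 on the log2 scale and OAS2 from 2, 0 and 1 to 11, 4 and 10 counts. IFI6 (1.33) was no longer called without DMSO replicate 2 or replicate 3 at 4 h, and IFIT3, called lower (-1.94), was no longer called without replicate 2 at 4 h.

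Genes of the integrated stress response, in which phosphorylation of eIF2α favours translation of ATF4, rose broadly. Of 23 tested members 15 were called higher and 1 lower, and the median was 1.26. ATF4 itself rose from 308, 309.8 and 289 CPM to 669, 649.9 and 625 CPM (log2 fold change 1.10 ± 0.04 (SE), adjusted p = 1.1e-25). DDIT3, which encodes CHOP, rose from 13.5, 9.4 and 9.82 CPM to 162, 138 and 138 CPM (log2 fold change 3.76 ± 0.12 (SE), adjusted p = 1.4e-25). The stress sensor gene SESN2 rose from 2.63, 3.11 and 2.0 CPM to 75, 78.5 and 75.2 CPM (log2 fold change 4.90 ± 0.24 (SE), adjusted p = 5.3e-20). The separation was complete in all 3. PPP1R15A, whose product GADD34 reverses the phosphorylation of eIF2α (3.49), CEBPB (3.41), the cytokine gene GDF15 (2.76) and the asparagine synthetase gene ASNS (2.47) rose with them. TRIB3, also an ATF4 target, passed the test without the fold (0.29), ATF5 passed in the lower direction (-0.67), and VLDLR, named after its value was seen, was the member called lower (-1.72). The promoter of CHAC1 is shown with its single match to the CARE, the C/EBP-ATF response element TGATGNAA, read on the reverse strand. ASNS and CHAC1 were the only 2 of 13 promoters of called members in this list to hold one, and the element was in 1.71% of promoters of genes called higher, 1.64% of those of tested genes and 3.67% of all promoters.
CHAC1, chr15:40953221-40953470, plus strand (GRCh38.p14): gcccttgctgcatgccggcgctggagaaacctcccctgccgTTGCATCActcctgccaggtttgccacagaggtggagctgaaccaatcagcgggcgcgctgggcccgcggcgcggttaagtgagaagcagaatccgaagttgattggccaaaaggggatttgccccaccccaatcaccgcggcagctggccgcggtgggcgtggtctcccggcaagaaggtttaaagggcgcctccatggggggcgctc

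The arms next to this response moved less. Among 15 amino acid transporter genes, 3 were called higher (median 0.07): the cystine transporter gene SLC7A11 (2.20), SLC38A2 (1.76), which carries small neutral amino acids, and SLC3A2 (1.67), the heavy chain that partners several of them. SLC7A5, a light chain partner, was at 0.263, 0.122 and 0.171 CPM in DMSO and 0.412, 0.369 and 0.444 CPM at 4 h, and did not pass (adjusted p = 0.15). Over all tested genes, 26.4% passed in the higher direction and 24.7% in the lower. Of 20 cytosolic aminoacyl-tRNA synthetases, which charge tRNAs and are ATF4 targets in part, 11 passed in the higher direction and 3 in the lower, but CARS1 alone was called (1.10; list median 0.17). In the unfolded protein response of the endoplasmic reticulum 15 of 20 passed higher and 3 were called: HERPUD1 (1.88), the sensor kinase gene ERN1 (1.71) and the co-chaperone gene DNAJB9 (1.63), with a median of 0.23. HSPA5, which encodes the chaperone BiP, changed little, from 1915, 1772 and 1891 CPM to 2356, 2334 and 2273 CPM (log2 fold change 0.32 ± 0.03 (SE), adjusted p = 3.0e-12).

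Cytosolic chaperones rose in part. Of 24 tested heat shock genes 17 passed in the higher direction and 1 in the lower, against 26.4% and 24.7% of all tested genes. In this list 5 were called higher and the median was 0.42. DNAJB1, a partner of HSP70, went from 49.1, 45.3 and 46.5 CPM to 235, 209.6 and 218 CPM (log2 fold change 2.23 ± 0.06 (SE), adjusted p = 1.3e-28). HSPA1A (2.01) and HSPA1B (1.71) encode the inducible HSP70 from near-identical copies, so the split of reads between them is uncertain. BAG3 (1.53) and DNAJB4 (1.38) were the other called members, and the constitutive HSPA8 passed with 0.75. Of 21 tested antioxidant genes under NRF2, 9 passed higher, 2 passed lower and 2 were called: ABCC2 (1.33) and HMOX1, the haem oxygenase gene, which had 1, 3 and 2 counts in DMSO and 31, 20 and 23 at 4 h (ratio 14.9, interval 6.55 to 42), and the median was 0.18. In the aryl hydrocarbon receptor pathway 3 of 6 tested genes were called (median 0.57). The receptor gene AHR rose from 1.97, 1.04 and 1.37 CPM to 10.9, 9.38 and 7.84 CPM (log2 fold change 2.70 ± 0.26 (SE), adjusted p = 2.7e-11). TIPARP rose by 2.63 on the log2 scale and CYP1A1, its classical target, by 1.20, a call lost without replicate 2 at 4 h.

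Metallothioneins, small cysteine-rich proteins that bind zinc and copper, formed a compact group. Of 17 tested metallothionein and zinc transporter genes 6 were called higher and 1 lower (median 0.44). MT1X was at 25.8, 26.1 and 25.9 CPM in DMSO and at 592, 462 and 478 CPM at 4 h (log2 fold change 4.29 ± 0.10 (SE), adjusted p = 5.7e-31). MT2A was at 36.8, 39.9 and 33.7 CPM and then 345, 270.1 and 268 CPM (log2 fold change 2.99 ± 0.09 (SE), adjusted p = 2.3e-27). MT1E was at 49.5, 52.9 and 47.3 CPM and then 552, 468 and 456 CPM (log2 fold change 3.30 ± 0.07 (SE), adjusted p = 2.6e-32). All 3 were many times higher in every 4 h sample. SLC30A1, the zinc exporter of the plasma membrane, rose from 81.2, 90.5 and 91.3 CPM to 531, 503 and 505 CPM (log2 fold change 2.55 ± 0.06 (SE), adjusted p = 1.0e-29). The exporter gene SLC30A10 fell by 1.63 on the log2 scale. The groups were apart in each of these genes. The metallothionein genes lie close together and are alike in sequence, so reads may be split between them, and the call of MT1L (1.69), annotated as a pseudogene, was lost without DMSO replicate 2 or replicate 1 at 4 h and with edgeR and DESeq2. The importer genes of the list did not give a call. The promoters of MT1X and MT2A are shown with their matches to the metal response element, TGCACNC or TGCGCNC on either strand, in capitals: MT1X holds 4 and MT2A 7. The third called member with a promoter in the table, SLC30A1, also holds one, but the element is common, present in 37.0% of promoters of genes called higher, 39.3% of those of tested genes and 29.3% of all.
MT1X, chr16:56682220-56682469, plus strand (GRCh38.p14): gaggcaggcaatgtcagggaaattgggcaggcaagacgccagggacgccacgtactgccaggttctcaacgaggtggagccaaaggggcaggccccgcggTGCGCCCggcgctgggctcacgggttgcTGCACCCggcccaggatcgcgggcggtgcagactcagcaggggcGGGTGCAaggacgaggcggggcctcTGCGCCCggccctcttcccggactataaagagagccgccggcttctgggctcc
MT2A, chr16:56608334-56608583, plus strand (GRCh38.p14): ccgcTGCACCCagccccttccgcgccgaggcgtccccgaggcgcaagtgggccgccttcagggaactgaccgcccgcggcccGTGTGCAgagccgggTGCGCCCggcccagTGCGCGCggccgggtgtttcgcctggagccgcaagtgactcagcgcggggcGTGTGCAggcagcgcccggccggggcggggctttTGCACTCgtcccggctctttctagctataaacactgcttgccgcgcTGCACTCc

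MYC was the only member of its network to be called lower. Among 12 tested genes of the MYC, MAX and MXD network 2 were called higher (median 0.24). MYCL, a paralogue, rose from 3.29, 2.38 and 3.14 CPM to 9.48, 10.6 and 10.6 CPM (log2 fold change 1.81 ± 0.18 (SE), adjusted p = 8.6e-11). MXD1, which competes with MYC for MAX, rose from 25.1, 23.8 and 25.1 CPM to 89.5, 97.9 and 92.9 CPM (log2 fold change 1.92 ± 0.07 (SE), adjusted p = 3.4e-24). MAX passed with 0.65. Ribosome biogenesis factors, classical targets of MYC, shifted down by small steps: of 31 members 24 passed in the lower direction and 1, NPM1 (0.20), in the higher, against 24.7% and 26.4% of all genes, with a median of -0.29. Of these 2 were called, URB2 (-1.42) and PPAN (-1.09), while NOP16 lay at the limit (-0.99) and was called under several alternatives.

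Regulators of P-TEFb, the kinase that releases paused RNA polymerase II, gave a divergent pair. HEXIM1, the main inhibitor of P-TEFb, rose from 48.9, 47.3 and 53.7 CPM to 256, 239 and 241 CPM (log2 fold change 2.29 ± 0.05 (SE), adjusted p = 1.7e-30). Its relative HEXIM2 was at 1.84, 0.854 and 1.71 CPM and then 0.577, 0.0738 and 0.739 CPM (log2 fold change -1.94 ± 0.56 (SE), adjusted p = 0.0039). The call of HEXIM2 rested on replicate 2 at 4 h, without which its log2 fold change was -1.03 and its adjusted p 0.101. MEPCE, which caps the 7SK RNA, rose by 1.15, CDK9, the kinase itself, passed with -0.29, and BRD2 with 0.79. Of the 14 tested members 2 were called higher and 1 lower, with a median of 0.14. In polyamine metabolism 4 of 12 genes were called higher and 1 lower (median 0.21). The enzymes that break polyamines down rose. SAT1 went from 33.3, 33.4 and 33.6 CPM to 179, 170.5 and 162 CPM (log2 fold change 2.35 ± 0.07 (SE), adjusted p = 6.8e-27), and PAOX rose by 1.62 and SMOX by 1.16. On the synthetic side AMD1 fell by 1.32 on the log2 scale, and ODC1, the first enzyme of the pathway, passed with 0.26. AZIN2 (1.61) was no longer called without DMSO replicate 1.

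Cell cycle genes were read as 3 lists, and calls were few. Among 21 cyclins, inhibitors and factors of G1, 3 were called higher and 1 lower (median 0.18). The 3 were inhibitors of cyclin-dependent kinases. CDKN1C rose from 0.0657, 0.549 and 0.285 CPM to 4.95, 4.95 and 6.43 CPM (log2 fold change 4.35 ± 0.59 (SE), adjusted p = 5.7e-08). CDKN2B rose from 1.05, 0.549 and 1.26 CPM to 12.9, 10.9 and 12 CPM (log2 fold change 3.68 ± 0.30 (SE), adjusted p = 3.8e-13). CDKN1A, which encodes p21, rose from 50.2, 46.7 and 44.5 CPM to 162, 152 and 152 CPM (log2 fold change 1.72 ± 0.06 (SE), adjusted p = 3.3e-25). The 2 that were nearly silent in DMSO rose the most. CDC25A, a phosphatase that activates those kinases, fell by 1.16 on the log2 scale, and CCND1, the cyclin D1 gene, passed just inside the fold limit (0.98). No gene was called among 24 DNA replication genes (5 passed higher and 9 lower, median -0.05, from FEN1 at -0.45 to SLBP at 0.71) or among 24 mitotic genes (7 higher and 10 lower, median -0.02, from AURKA at -0.39 to CDC25C at 0.38).

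Histone genes moved as a block. Of the 46 tested genes of the replication-dependent type, grouped by symbol after their values were seen, 36 were called higher (78.3%) and none lower, with a median of 2.35. H4C4 had 2, 1 and 0 counts in DMSO and 98, 104 and 97 at 4 h (ratio 121, interval 41 to 589). H3C4 rose from 0.723, 1.77 and 1.14 CPM to 29.5, 26.1 and 25.4 CPM (log2 fold change 4.51 ± 0.26 (SE), adjusted p = 1.3e-17). H2BC5 rose from 7.49, 6.53 and 5.54 CPM to 119.8, 103 and 107 CPM (log2 fold change 4.08 ± 0.12 (SE), adjusted p = 4.3e-27). H2BC4 rose from 4.8, 5.55 and 6.85 CPM to 89.9, 78.3 and 82 CPM (log2 fold change 3.85 ± 0.13 (SE), adjusted p = 1.6e-25). Messages of these genes normally end in a stem-loop that SLBP binds and carry no poly(A) tail, and the ribosomal depletion used here keeps RNA of both kinds. Many of the genes are alike in sequence and lie in clusters (H4C4 is 4110 bases from H2BC6), so single-gene values are uncertain.

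Pro-apoptotic and p53-linked genes rose in part. Of 20 tested p53 targets 5 were called higher and 1 lower (median 0.12). BBC3, which encodes PUMA, rose from 1.05, 0.549 and 0.628 CPM to 12.2, 11.5 and 10.3 CPM (log2 fold change 3.94 ± 0.35 (SE), adjusted p = 3.5e-12). PMAIP1, which encodes NOXA, rose from 2.04, 2.99 and 2.06 CPM to 22.3, 21.8 and 22.4 CPM (log2 fold change 3.24 ± 0.18 (SE), adjusted p = 2.7e-18). GADD45A rose by 1.88, PLK3 by 1.72 and CDKN1A as above. MDM2, the classical p53 target, passed in the lower direction (-0.30), and the nuclease gene AEN was called lower (-1.35). In the BCL2 family 4 of 15 tested genes were called higher and none lower (median 0.01), and all 4 encode BH3-only killers. Beside BBC3 and PMAIP1 these were HRK (1.75) and BCL2L11, which encodes BIM. BCL2L11 went from 27.3, 23.8 and 27.9 CPM to 111, 113 and 107 CPM (log2 fold change 2.07 ± 0.07 (SE), adjusted p = 2.4e-25). Of the survival genes, MCL1 passed in the higher direction (0.68) and BCL2L1, which encodes BCL-XL, in the lower (-0.57).

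ERG itself was lower within 4 h, although not by the called margin. It was at 280.0, 289.5 and 298 CPM in DMSO (ENSG00000157554, chromosome 21, 38380027 to 38661780, minus strand) and at 178, 184 and 178 CPM at 4 h (log2 fold change -0.68 ± 0.04 (SE), adjusted p = 1.7e-16). The groups did not overlap. TMPRSS2, whose promoter drives the fusion (ENSG00000184012, chromosome 21, 41464551 to 41531116, minus strand), fell from 53.4, 54.9 and 52.9 CPM to 19.9, 22.7 and 19.1 CPM (log2 fold change -1.39 ± 0.09 (SE), adjusted p = 2.4e-16). Counts by gene cannot tell the fusion transcript from the native one. Of 9 tested genes that the study itself shows as ERG targets, 8 passed in the lower direction and none in the higher, with a median of -0.39. Among all tested genes 24.7% passed in the lower direction and 26.4% in the higher. The study shows ERG target genes beside its own results for PBITE-1, so this list is no independent evidence. The running text of the study names TDRD1, PLAT and PLA1A among such targets, but not TMPRSS2 or DLX1. TMPRSS2 and the homeobox gene DLX1 were called, the latter from 26.1, 27.8 and 24.9 CPM to 12, 11.8 and 13.3 CPM (log2 fold change -1.08 ± 0.11 (SE), adjusted p = 1.4e-10). PLAT (-0.65), ARHGDIB (-0.44), CAPN15 (-0.39), TRIM14 (-0.29), USP36 (-0.26) and TDRD1 (-0.22) passed by smaller steps, and PLA1A was at 142, 127 and 136 CPM and 144, 131 and 134 CPM (adjusted p = 0.85), a difference whose sign depended on the scaling.

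Other ETS genes and prostate lineage factors moved unevenly. Among 19 tested ETS genes 3 were called higher and 1 lower (median 0.04). ETS1 rose from 2.76, 2.69 and 3.25 CPM to 11.9, 10.2 and 9.91 CPM (log2 fold change 1.86 ± 0.19 (SE), adjusted p = 1.7e-10). The epithelial factor gene ELF3 rose by 1.44, and ETV5, a target of the ERK pathway in many cells, from 2, 1 and 1 to 17, 13 and 10 counts (ratio 12.1, interval 4.38 to 46.6). FEV was called lower (-1.15) from few counts, and lost the call without DMSO replicate 2 or without replicate 2 or 3 at 4 h. ELK4 passed with -0.69. Among 18 prostate lineage factors, 3 were called higher, KLF5, SOX4 (1.65) and FOXA2 (1.27), and none lower (median 0.02), while HOXB13 (-0.35) and GATA2 (-0.51) passed in the lower direction. None of the 8 luminal markers was called, and 3 passed in the higher direction and 4 in the lower (median -0.07), among them KRT8 (0.59), KLK3 (-0.19), EPCAM (-0.16) and HOXB13. Their summed level, without TMM, was 5364 to 5487 CPM in DMSO and 4681 to 4839 at 4 h, without overlap.

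Metabolic lists gave smaller and mostly upward shifts, where 26.4% of all tested genes passed in the higher direction and 24.7% in the lower. For cholesterol and fatty acid synthesis, run by SREBP factors, 19 of 21 tested genes passed in the higher direction and 1 in the lower, 5 were called higher and the median was 0.51. INSIG1 went from 421, 398 and 428 CPM to 2121, 2669 and 2284 CPM (log2 fold change 2.50 ± 0.05 (SE), adjusted p = 1.0e-32). The isomerase gene IDI1 rose by 1.33 and the sterol oxidase gene MSMO1 by 1.07, on the log2 scale, and MSMO1 was not called without replicate 2 at 4 h. SREBF2 itself passed with -0.12. Of 16 tested hypoxia-type and glycolysis genes 5 were called higher and 1 lower (median 0.21). VEGFA, the angiogenic factor gene, rose from 19.6, 18.6 and 18.8 CPM to 88.2, 93.1 and 81.7 CPM (log2 fold change 2.20 ± 0.08 (SE), adjusted p = 6.9e-25). ANKRD37, P4HA1 and ADM rose by 1.37, 1.30 and 1.21. KDM3A rose by 1.01, which fell inside the limit under 3 other scalings or fits. The glucose transporter gene SLC2A3 fell (-1.71). Of 22 lysosome and autophagy genes 13 passed higher, 2 passed lower and 3 were called, MAP1LC3B, which encodes an LC3 protein of the autophagosome (1.81), MITF (1.43) and FNIP1 (1.05, inside the limit when scaled by library size or without replicate 3 at 4 h), with a median of 0.23. Of 13 tested ID, HES and SMAD feedback genes 2 were called higher, the BMP pseudoreceptor gene BAMBI (2.62) and ID4 (1.54), and the median was 0.52. No member was called among 18 SR splicing factors and CLK kinases (3 passed higher and 10 lower, median -0.14), where CLK1 lay just inside the limit (0.97) and SRSF4 was lowest (-0.62), or among 13 mitochondrially encoded genes (3 higher and 5 lower, median 0.01), of which MT-ND5 (-0.50) and MT-CYB (-0.38) moved the most. Mitochondrially encoded RNA made up 9.67 to 10.1% of counts in DMSO and 9.27 to 9.38% at 4 h.

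**Figure D3:**
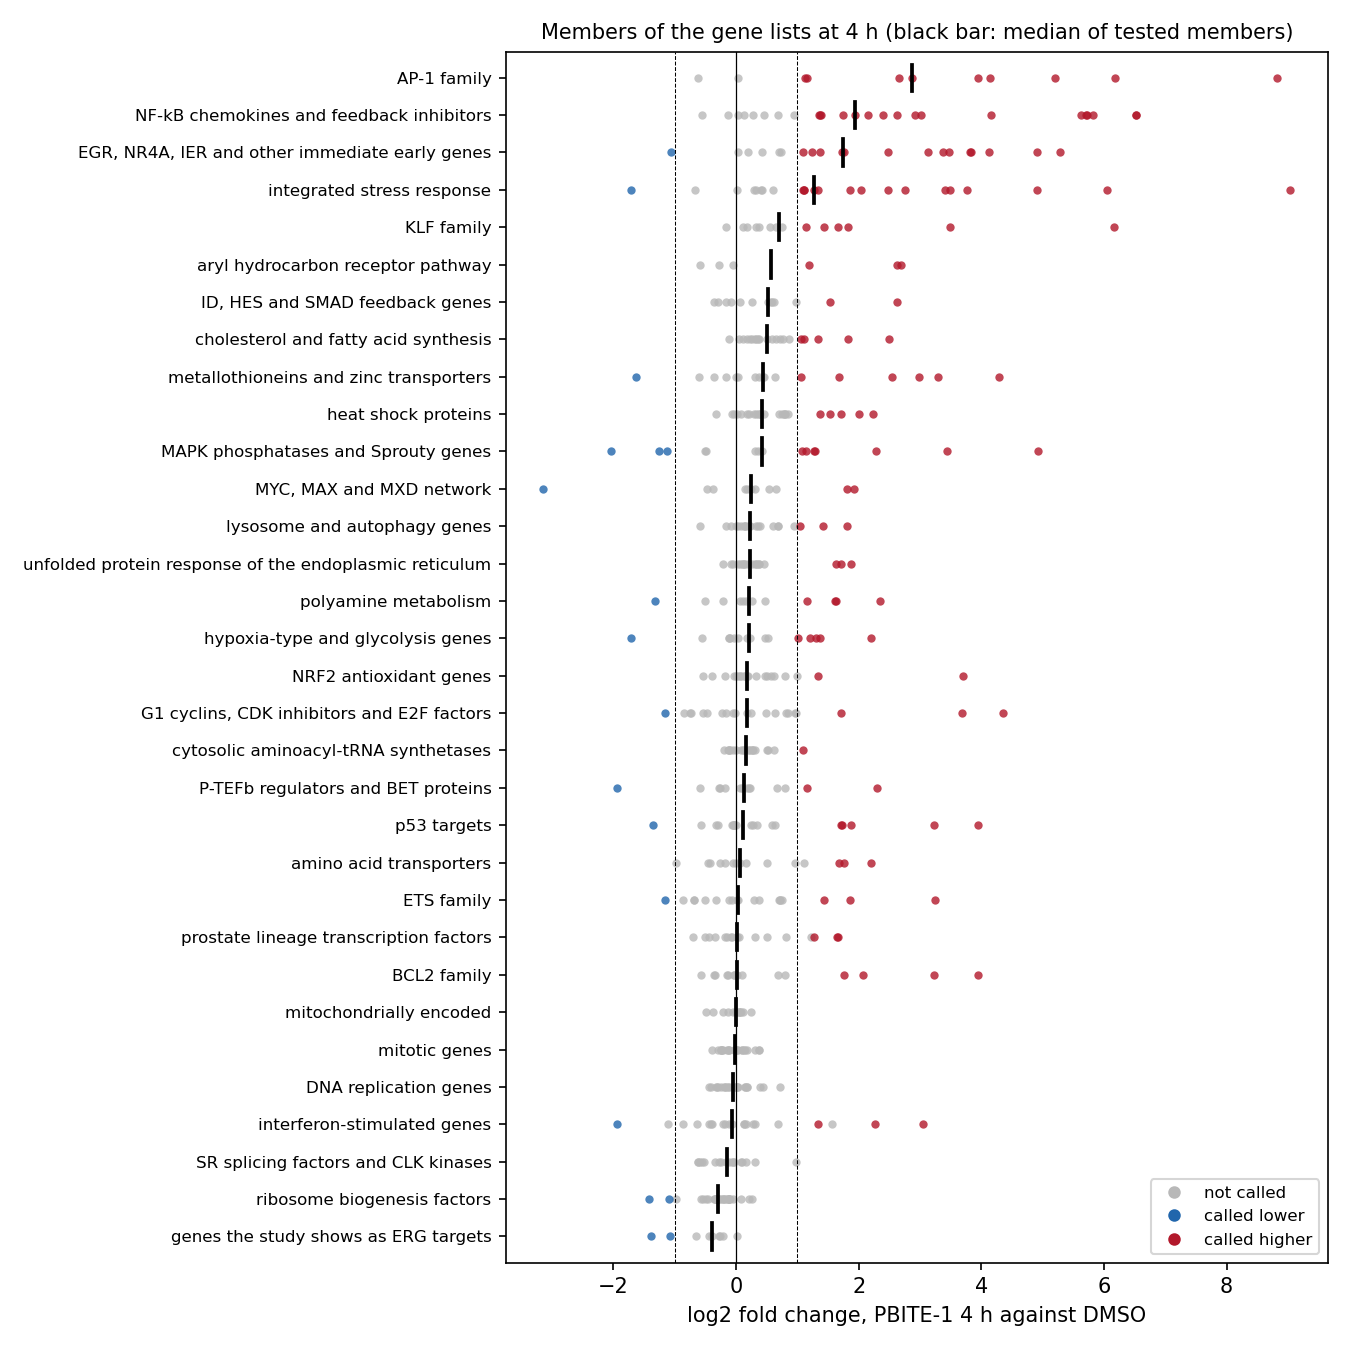
Log2 fold change at 4 h of each tested member of 32 gene lists, with called members in red (higher) or blue (lower), the median as a black bar and dashed lines at 1 and -1. The AP-1, NF-kB, immediate early and integrated stress response lists lie to the right with medians from 1.26 to 2.88, while ribosome biogenesis factors and the study's ERG target genes lie slightly to the left.

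The called genes were more compact at the median than all tested genes, with wide overlap, in traits that their selection did not use. The longest GENCODE 29 transcript had a median of 4 exons for genes called lower and 5 for genes called higher, against 8 for all tested genes with a position. The quartiles were 2 to 8, 3 to 10 and 4 to 14 exons, in the same order. Its median length differed less, at 2.97, 3.37 and 3.63 kb. The median gene span was 13.5, 23.1 and 32.6 kb, in the same order. Genes whose longest transcript had a single exon made up 14.5%, 10.5% and 5.53%. That transcript need not stand for the gene: SPRY4 counted as 1 exon, with a transcript of 5349 bases in a span of 16029. The share called fell in both directions with the number of exons of the longest transcript. With 1 exon 7.81% of genes were called lower and 13.8% higher, and with 13 or more the shares were 1.28% and 4.56%. Pseudogenes, whose reads may belong to other copies, were 13.7% of the genes called lower, 5.34% of those called higher and 4.55% of those tested. Among protein-coding genes whose longest transcript had a single exon the shares were 7.59% lower and 17.1% higher. Called genes were also expressed at lower levels than the rest, as given above, and the part of level in these shares was not tested.

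**Figure D4:**
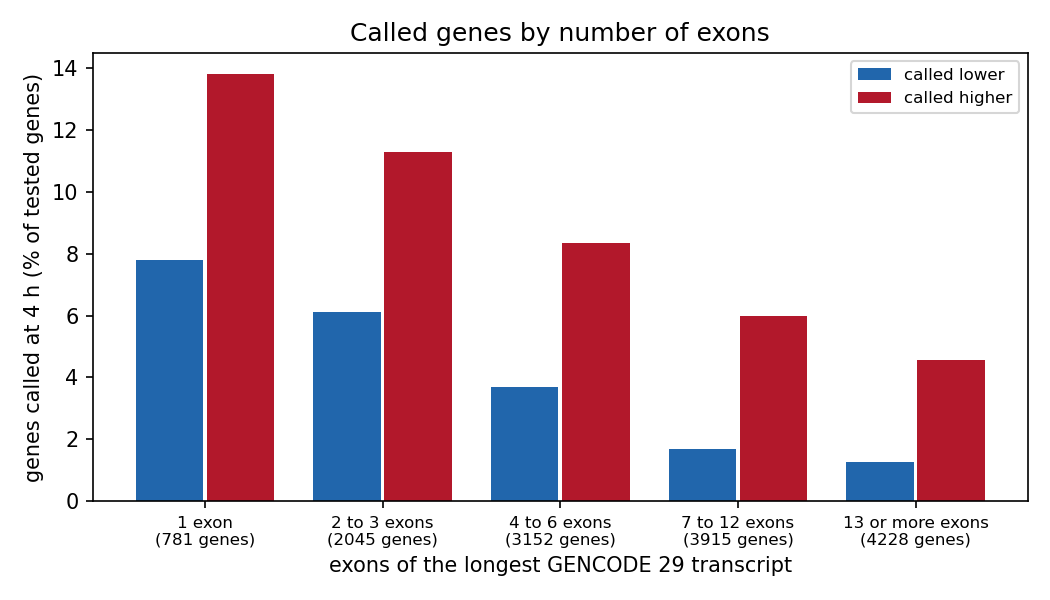
Percentage of tested genes called lower (blue) and called higher (red) at 4 h, by the number of exons of the longest transcript, with the number of tested genes under each pair of bars. Both shares fall from left to right, from 7.81% and 13.8% with 1 exon to 1.28% and 4.56% with 13 or more.

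The promoters of the called genes differed little from those of all tested genes in most motifs searched. The ETS core sequence with its flanks, CCGGAAGT, was present in 8.51% of promoters of genes called lower and 2.49% of those called higher, against 8.40% for tested genes. The MYC-type E-box CACGTG was present in 7.09%, 8.14% and 9.86%, the AP-1 site TGANTCA in 5.32%, 4.86% and 4.35%, and the cyclic AMP response element TGACGTCA in 2.13%, 3.41% and 3.25%, in the same order. The aryl hydrocarbon receptor core GCGTG was in 42.9%, 46.1% and 50.3% and the heat shock element in 0.355%, 0.262% and 0.338%. Promoters here are the 250 bases before and 50 after the RefSeq start, read on both strands, and were found for 282 genes called lower, 762 called higher and 10947 tested. Among all 27305 promoters of the table the ETS sequence was in 4.44% and the E-box in 7.43%.

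The later samples, which share the DMSO controls, extend the course of these genes. MYC stood at 339 ± 14.2 CPM in DMSO, 38.4 ± 2.35 at 4 h, 27.4 ± 1.63 at 8 h and 43.8 ± 7.36 at 12 h (mean ± SD, n = 3 each), and ERG at 289 ± 8.85, 179.9 ± 3.36, 93.8 ± 2.94 and 97.2 ± 7.66. JUN went from 27.1 ± 2.64 to 1010.4 ± 215, 317 ± 6.86 and 382 ± 12.9 CPM, and KLF2 from 0.399 ± 0.272 to 24.7 ± 1.05, 34.9 ± 1.14 and 8.52 ± 1.41. Of the 38 genes named above for the size of their fold or of their change in CPM, 14 differed between 12 h and 4 h at an adjusted p below 0.05 and a log2 difference above 1 in size, 7 of them higher at 12 h and 7 lower. CHAC1 moved from 39.8 ± 4.0 CPM at 4 h to 40.5 ± 1.4 and 29.6 ± 2.92, TNFAIP3 from 113 ± 15.4 to 98.2 ± 4.56 and 85.3 ± 7.38, ATF3 from 279 ± 48 to 255 ± 6.9 and 358 ± 60.7, and MT1X from 511 ± 71.1 to 522 ± 32.7 and 329.6 ± 25.1. TMPRSS2 went from 20.6 ± 1.86 to 14.1 ± 2.6 and 14.1 ± 1.89 CPM.

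**Figure D5:**
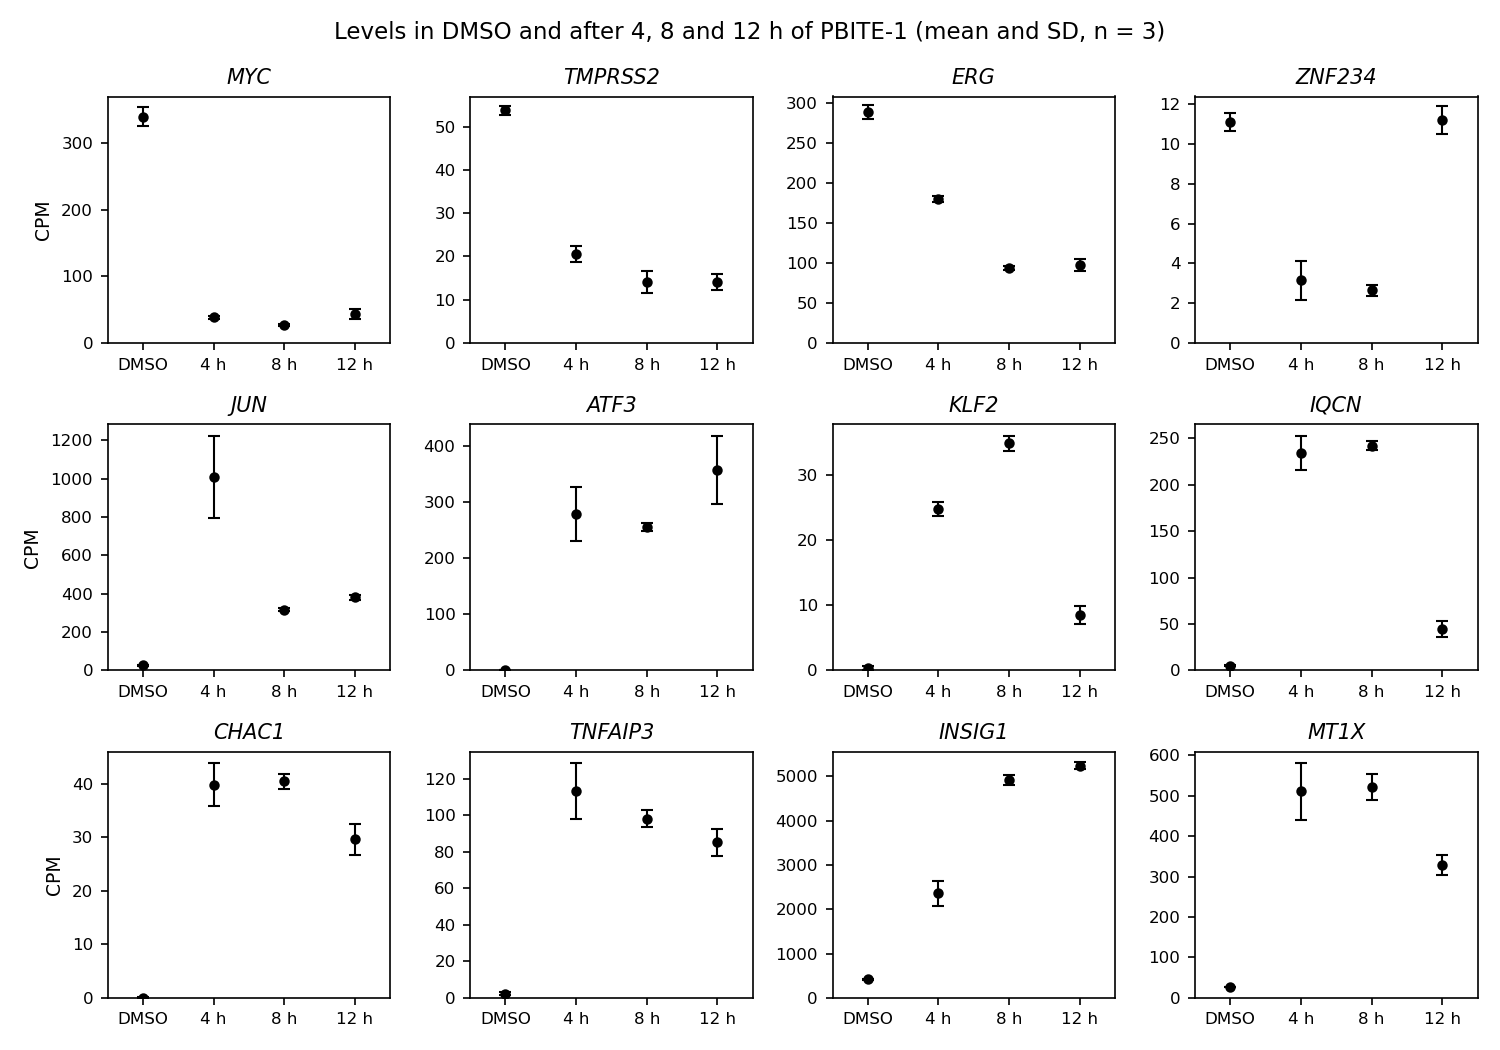
Mean CPM with SD (n = 3) of 12 genes in the DMSO samples and after 4, 8 and 12 h of PBITE-1, each panel on a linear axis from 0. MYC stays low from 4 h on, JUN is highest at 4 h, IQCN is as high at 8 h as at 4 h and lower at 12 h, and INSIG1 is highest at 12 h.

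In VCaP-shERG cells, which share no sample with the 4 h comparison, the log2 fold change of ERG with doxycycline was -1.44 ± 0.04 (SE), adjusted p = 3.3e-22. In that comparison MYC gave -1.95 ± 0.04 (SE), adjusted p = 1.2e-24 and TMPRSS2 -1.02 ± 0.07 (SE), adjusted p = 8.4e-13. For leading genes of the 4 h response the doxycycline values were -0.35 ± 0.43 (SE), adjusted p = 0.48 for ATF3, 0.70 ± 0.06 (SE), adjusted p = 1.7e-10 for JUN, 0.99 ± 0.28 (SE), adjusted p = 0.0026 for TNFAIP3 and -0.35 ± 0.40 (SE), adjusted p = 0.44 for CHAC1. For MT1X the value was -2.33 ± 0.15 (SE), adjusted p = 1.5e-13, and for DLX1 it was -1.17 ± 0.09 (SE), adjusted p = 1.7e-11. The difference between the compound and the hairpin was not tested, since the cells, the control samples and the treatment differ.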

How the data were processed

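RNA was extracted from 18 VCaP samples in 6 groups of 3, depleted of ribosomal RNA and sequenced as paired reads. The authors deposited whole-number counts per gene, without normalization. The methods of the study name Kallisto for quantification and edgeR and limma-voom for the tests, while the submitters' processing notes list STAR, featureCounts and hg38; the annotation and the use of strand are not given in the sources used here. Genes were matched to symbols by Ensembl identifier (22011 of 22034) and to GENCODE 29 positions.

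Counts were scaled by TMM (edgeR 4.0.16) and the 12 parental samples were fitted together with limma-voom (limma 3.58.1, R 4.3.3) after filterByExpr, which kept 14164 genes. The fit was tested on simulated data: of 200 genes changed by a log2 fold of 2 among 12784, all 200 were called and 0 others were. The simulation left out the genes with the fewest counts and gave every gene the same biological coefficient of variation, 0.044. All other genes were left unchanged, unlike the many small shifts in the real samples. It therefore checks that the procedure runs and cannot show how reliable the calls are, least of all at low counts. DESeq2 1.42.0 and edgeR's quasi-likelihood test were alternatives. Promoters came from RefSeq (GRCh38.p14). Figures were drawn with matplotlib 3.10.9, and exact intervals came from scipy 1.17.1.

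No 2 replicates of a group were alike within sampling noise (chi-square per degree of freedom 1.97 to 3.51). Same-numbered DMSO and 4 h samples did not deviate together in all 3 pairs (r = 0.18, -0.03 and 0.12 over 9619 genes), so no block was used.

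The comparison and the gene lists were chosen with earlier results of these data known. Named were the 15 called genes with the largest rise and fall, without overlap and with a mean count of at least 50; the 5 with the largest rise and fall in CPM; up to 6 called members of each list, or the 2 with the largest change that passed where none was called; ERG, MYC and the study's ERG targets; and genes with at most 3 counts in one group and at least 10 in each sample of the other. Other members were named after their values were seen, to give the context of a list: NFKBIA, IRF1, CXCL2, ATF4, ATF5, TRIB3, ASNS, GDF15, VLDLR, DUSP1, DUSP2, DUSP6, SPRY1, SPRY2, JUND, FOSL2, MAFK, ZFP36L1, SLC7A5, HSPA5, HSPA8, MAX, NPM1, NOP16, MCL1, BCL2L1, MDM2, CCND1, KLK3, EPCAM, SYP, ELK4, GATA2, HOXB13, SREBF2, BRD2, CDK9, SAT1, ODC1, the neighbour ERCC1 and the histone genes other than H4C4 and H1-6. Some genes and 1 list are not reported here. Genes that overlap another, such as MAT2A (GGCX), DDIT3 (MARS1), IFIT3 (LIPA) and PTPRO (RERG), may hold some of its reads.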

Additional observations from a re-analysis of the deposited data

Results flagged for a closer look

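Each of the 38 genes named for the size of its fold or of its change in CPM at 4 h was compared between 12 h and 4 h in the same limma-voom fit, and 14 differed at an adjusted p below 0.05 with a log2 difference above 1 in size. These values are the difference between the effects at the 2 times, since both are set against the same DMSO samples.

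Higher at 12 h than at 4 h were CXCL8 by 2.43 on the log2 scale, PEG10 by 2.34, ZNF234 by 1.88, AMER3 by 1.16, INSIG1 by 1.16, SEMA4C by 1.07 and DDIT4 by 1.05. ZNF234, AMER3 and SEMA4C had fallen at 4 h, AMER3 from 11.3 to 2.8 CPM on average, and at 12 h stood at log2 fold changes of 0.02, -0.84 and -1.18 against DMSO. CXCL8, already at 6.53, stood at 8.95, and PEG10 went from 1.38 to 3.72.

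Lower at 12 h than at 4 h were H4C4 by a log2 difference of -2.58, IQCN by -2.40, SPRY4 by -1.57, KLF2 by -1.54, ISX by -1.42, JUN by -1.38 and CCNJ by -1.20. SPRY4 and ISX, lower at 4 h, fell further, to -3.62 and -4.38 against DMSO. IQCN and JUN, among the largest increases at 4 h, stood at 3.09 and 3.83 against DMSO at 12 h, and CCNJ went from 1.38 to 0.18.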

How the results depend on the processing

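The 424 genes called lower and 1031 called higher became 217 and 621 when at least 10 counts were asked of every sample, which leaves fewer genes to test, 3495 and 3741 with no fold limit, and 57 and 415 with the log2 fold limit set at 2. All other alternatives gave 346 to 540 lower and 922 to 1303 higher. Leaving out 1 sample at a time gave 391 to 427 lower and 974 to 1038 higher. edgeR's quasi-likelihood test called 407 and 1020, of which 394 and 1002 were shared with limma-voom, and DESeq2 called 376 and 1019, of which 371 and 1000 were shared. With scaling by library size only the counts were 477 and 970, and the median of all genes moved from -0.01 to -0.06. The replicate block, added although the numbers do not pair the samples, gave 404 and 1036 and changed no call of a named gene.

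Of 3676 values for 221 named genes, 3635 kept their direction and their side of the threshold. The log2 fold change of PLA1A at 4 h, 0.01, became -0.0104 with upper quartile scaling, -0.0338 with library size only and -0.00666 with all 18 samples in one fit, and ranged from -0.0288 to 0.0511 with a sample left out. It did not pass the test under any of these. Calls of 14 named genes were lost under at least 1 alternative and that of NOP16 was gained. The cause was not tested. Depth limits the genes with few counts, where 103 genes called higher had at most 3 counts in every DMSO sample.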

Other observations

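Other genes with at most 3 counts in every DMSO sample and at least 10 in every sample at 4 h included genes known from other tissues. TUBB3, a neuronal tubulin gene, had 2, 1 and 0 counts in DMSO and 17, 17 and 12 at 4 h, NPPC, which encodes C-type natriuretic peptide, 3, 1 and 2 and 22, 15 and 14, and RPL3L, a ribosomal protein gene of muscle, 2, 0 and 1 and 23, 21 and 24. FBP2, the muscle fructose bisphosphatase gene, had 1, 0 and 2 and 15, 10 and 19, and the Wnt antagonist gene FRZB 0, 1 and 1 and 21, 15 and 31. The phosphatase gene PTPRO had 0, 0 and 1 and 21, 26 and 26 counts and the flippase gene ATP10D 2, 3 and 3 and 48, 45 and 41, while PGF, a growth factor gene of the placenta, had 0, 0 and 3 and 18, 12 and 14. These are values of the same comparison, given without an account of their source.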
